A study of Homo sapiens with 12 samples.

Results

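The genes described are the AP-1 subunits FOS, FOSB, FOSL1, FOSL2, JUN, JUNB, JUND and ATF3, together with EGR1 and MYC. Their probe sets were taken by gene symbol from the platform annotation, which gave 24 probe sets with 1 of these 10 genes as the sole symbol, out of 19775 genes on the array. Of the 24 probe sets 19 passed the filter on low values (a log2 value above 4 on at least 3 arrays), and 9 of the 10 genes were among the 10907 genes tested. FOSB was not tested.

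The RNA came from HK-2, an immortalised line of human renal proximal tubule cells. Cultures were given Nnm, at a dose the labels call low, or vehicle alone, and were taken after 24 h or 48 h. Vehicle cultures (control) and Nnm cultures at each time made 4 groups of 3 biological replicates. With 1 array per replicate the 12 arrays set the precision. Every group, controls included, grew in a defined medium with 10 ng/ml EGF, 36 ng/ml hydrocortisone, insulin, transferrin and selenite in 5 mM glucose, so a growth factor that acts on these genes was present throughout. The labels give no structure, full name or amount for Nnm, and they do not say whether the replicates were grown on separate days. All cultures were of 1 cell line, treated near confluence, which limits them as a model of the tubule.

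AP-1 is a pair of bZIP proteins held together by a leucine zipper. Fos proteins pair with Jun proteins, while Jun proteins and ATF3 can also pair with themselves. Growth factors and stress act through ERK, JNK and p38 kinases on transcription factors such as SRF, and within minutes they switch on FOS, FOSB, JUN, JUNB, ATF3 and EGR1, the immediate early genes. FOSL1 and FOSL2 follow later and persist longer, and in epithelia FOSL1 is tied to migration and to sustained ERK signalling. EGR1 is a zinc finger factor induced by injury and by EGF, and MYC, which pairs with MAX, drives ribosome production and cell growth.

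The epithelial markers KRT7, KRT8, KRT18, KRT19, CDH1 and EPCAM had log2 values of 6.33 to 13.48, and the renal transcription factor PAX8 stood at 10.58 to 11.74. Of 11 proximal tubule markers on the array, 9 stayed under a log2 of 4 on every array, among them the endocytic receptors CUBN and LRP2 and the transporters SLC34A1, SLC5A2 and SLC22A6. All 5 leukocyte markers and 4 of 5 endothelial markers stayed under 4 as well. Of 7 fibroblast markers 4 stayed under 4, while COL1A1, DCN and LUM were detected. The leading principal component (50.3% of the variance) placed controls at -34.4 to -18.6 and Nnm replicates 1 and 3 at 31.2 to 43.2, with both Nnm replicate 2 arrays in between, at 1.55 and 3.28. Beta-actin probe sets for the 5′ end read below those for the 3′ end by a log2 difference of -1.17 to -1.09 in replicate 2, Nnm and control alike, and of -0.86 to -0.74 in replicates 1 and 3. The part of this RNA quality measure in the results was not tested.

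Promoter sequences were available for 8 of the 10 genes, in the RefSeq table of build GRCh38.p14. FOSL1 and MYC had no entry. The 150 bases before the annotated start are shown for ATF3, EGR1, JUN and JUNB, because these stretches hold the motifs for Jun, ATF and SRF proteins or the TATA box that the text names. Capitals mark the motif matches named below.
ATF3: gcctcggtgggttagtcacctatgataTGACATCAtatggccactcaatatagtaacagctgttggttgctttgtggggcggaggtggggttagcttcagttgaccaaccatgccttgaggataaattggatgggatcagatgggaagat
EGR1: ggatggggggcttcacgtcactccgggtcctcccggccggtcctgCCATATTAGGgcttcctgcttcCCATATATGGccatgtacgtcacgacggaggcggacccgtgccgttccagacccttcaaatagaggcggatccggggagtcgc
JUN: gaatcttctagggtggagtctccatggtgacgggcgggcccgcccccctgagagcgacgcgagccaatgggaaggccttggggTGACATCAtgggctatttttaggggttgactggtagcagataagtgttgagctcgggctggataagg
JUNB: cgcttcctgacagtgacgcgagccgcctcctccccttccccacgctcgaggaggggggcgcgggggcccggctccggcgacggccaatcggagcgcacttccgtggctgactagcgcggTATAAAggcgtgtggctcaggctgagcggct

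The stretches lie at chr1:212565257-212565406 on the plus strand for ATF3, chr5:138465329-138465478 on the plus strand for EGR1, chr1:58784048-58784197 on the minus strand for JUN and chr19:12791336-12791485 on the plus strand for JUNB. Motifs were searched on both strands of the 250 bases before the start. The variant cyclic AMP response element TGACATCA, which Jun and ATF proteins bind as a pair, began at -67 in JUN and at -123 in ATF3, counted from the start, and 1.16% of the 9020 promoters of tested genes held it. That motif was added to the search after the sequences had been read. The CArG box, the site of SRF, occurred at -105 and at -83 in EGR1 and in 0.965% of tested-gene promoters. TATAAA was found in FOS, FOSB and JUNB (4.79% of tested-gene promoters) and the full element TGACGTCA in JUND (2.98%). Neither TGANTCA, the AP-1 site, nor CACGTG, the MYC site, nor the EGR1 sites GCGTGGGCG and GCGGGGGCG were found in the 8 windows. The shares of tested-gene promoters with these were 3.51%, 9.36%, 1.22% and 8.02%. A match is a string of letters in the reference and no measure of binding.

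**Figure D1:**
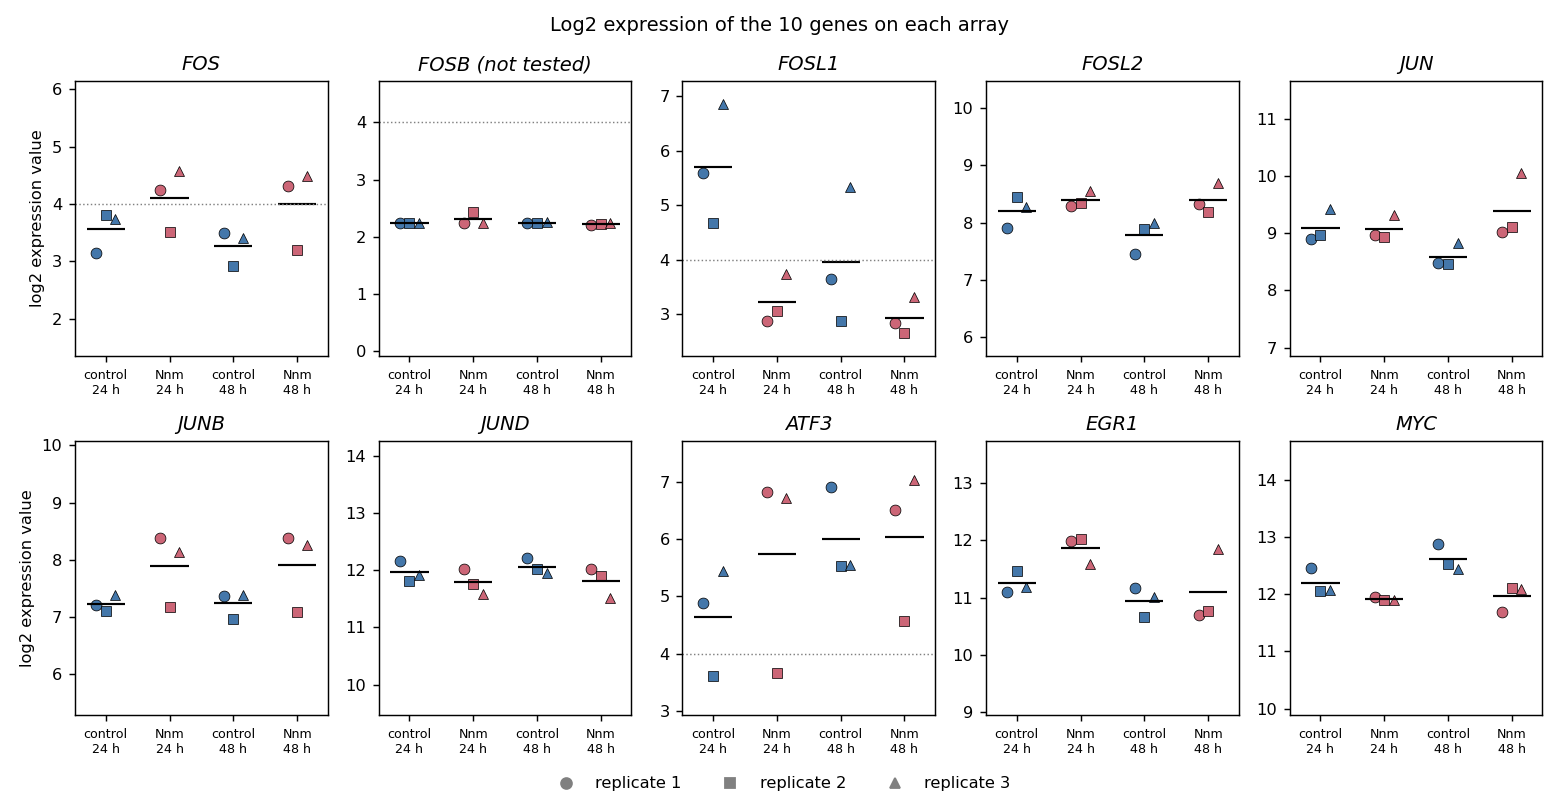
Log2 expression value (y axis, a scale of its own in each panel) of the 10 genes on every array, by group (x axis). Points are arrays with a shape for each replicate number, black bars are group means, and the dotted line is the filter value of 4. FOSL1 lay at 4.67 to 6.86 in control 24 h and at 2.88 to 3.73 in Nnm 24 h, and FOSB stayed between 2.21 and 2.43.

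The first comparison asks which of these genes differed between Nnm and vehicle after 24 h. FOSL1 fell, and it was the 1 gene of the 9 tested that passed an adjusted p of 0.05 (limma). Its probe set met the filter on 4 arrays, the 3 of control 24 h and control 48 h replicate 3, so it entered the test through the group where it was high, and with no filter on low values the call was lost (adjusted p = 0.0673). Over all 10907 genes 19.4% passed at 24 h (10.6% rose and 8.85% fell), so 1 of 9 is no larger a share than that of all genes. The median change of the 9 was 0.19 on the log2 scale, against 0.01 over all genes. That median is the value of FOSL2 by its brightest probe set, while its other 4 probe sets were lower with Nnm. It is therefore not read as a shift of the set.

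FOSL1, a Fos protein that lacks the transactivation domain of FOS, read 5.59, 4.67 and 6.86 in control 24 h (log2 values of replicates 1, 2 and 3) and 2.88, 3.05 and 3.73 in Nnm 24 h. Every Nnm value was under every control value. The group means were 5.71 ± 1.10 and 3.22 ± 0.45 (SD, n = 3), and FOSL1 fell by 2.49 (SE 0.63, limma adjusted p = 0.0233), and the 95% interval of the change ran from -3.87 to -1.11. With the replicate block (a term for the replicate number) the adjusted p was 0.0025. Since the 3 Nnm values lay below the filter value of 4, where background correction acts most, the size of the fall is uncertain. The gene was tested because its control 24 h values were high, which favours a fall. Neither its direction nor the blocked value is therefore independent support. Fewer FOSL1-expressing cells and less FOSL1 RNA per cell cannot be told apart in such bulk RNA. The call was lost without control 24 h replicate 1 (adjusted p = 0.0583) or 3 (0.0949) and without Nnm 24 h replicate 1 (0.0808) or 3 (0.0558), and the change ranged from -3.01 to -1.91 with each array left out in turn.

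The control level of FOSL1 differed between the times. It read 3.64, 2.87 and 5.34 in control 48 h, lower than control 24 h in each replicate number. The groups overlapped, and the difference of -1.76 (SE 0.63) between control 48 h and control 24 h had an adjusted p of 0.231 (limma), and of 0.0188 with the replicate block. With that block 8.47% of all genes passed between the control groups, against 0.128% without it, and FOSL1 was the 1 of the 9 genes past the threshold. FOSL1 met the filter mainly through control 24 h, the higher side of this comparison too. The blocked value is therefore no independent support for a fall over time. In Nnm 48 h FOSL1 read 2.85, 2.65 and 3.31. Nnm was under control in each of the 3 pairs at 48 h, with differences of -0.80, -0.21 and -2.03, and the groups overlapped. The change at 48 h was -1.01 (SE 0.63, adjusted p = 0.293, limma), or adjusted p = 0.0471 with the replicate block. In the fit over single probe sets that blocked value was 0.0522. Control 48 h replicate 3 was the only 48 h array above 4, and without it the change was -0.32 (adjusted p = 0.761, limma).

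FOS, the founding Fos protein, stood near the filter value in every group. Its values were 3.15, 3.80 and 3.74 in control 24 h, 4.25, 3.50 and 4.57 in Nnm 24 h, 3.49, 2.92 and 3.40 in control 48 h and 4.32, 3.19 and 4.48 in Nnm 48 h. Replicates 1 and 3 with Nnm were above all controls at both times, and replicate 2 with Nnm was within the control range. The changes of 0.54 (SE 0.36) and 0.72 (SE 0.36) did not pass, at adjusted p of 0.302 and 0.196 (limma) and of 0.158 and 0.0807 with the block. FOS met the filter through the 4 Nnm arrays of replicates 1 and 3 alone, so a fit without the Nnm replicate 2 arrays keeps just the arrays that let it in and is not read here. Without Nnm 24 h replicate 3 the 24 h change was 0.31, and without Nnm 48 h replicate 3 the 48 h change was 0.48. FOSB, which is induced beside FOS, read 2.21 to 2.43 on the 12 arrays, at background.

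FOSL2, the other late Fos protein, had 5 probe sets that did not move as one. The brightest, 228188_at, read 7.91, 8.45 and 8.27 in control 24 h and 8.29, 8.34 and 8.56 in Nnm 24 h, which overlapped. At 48 h it read 7.46, 7.89 and 8.0 in the controls and 8.32, 8.19 and 8.69 with Nnm, all above the controls. That difference of 0.61 (SE 0.19) had an adjusted p of 0.0565 (limma), and of 0.0124 with the replicate block. At 24 h the other 4 probe sets were lower with Nnm, by 0.13 to 0.82, while 228188_at was higher by 0.19. Of the 4, 3 passed with the block in the fit over single probe sets (205409_at at -0.69, adjusted p = 0.00548, 218880_at at -0.82, adjusted p = 0.0116, and 225262_at at -0.47, adjusted p = 0.0148), and 0 of the 5 passed without it, at adjusted p of 0.167 or more. At 48 h, 3 probe sets were higher and 2 lower, from -0.32 to 0.61. With the mean of the 5 the gene stood at -0.38 at 24 h (adjusted p = 0.351), so its direction at that time depends on the probe set. At 48 h the mean of the 5 gave 0.10 (adjusted p = 0.849), and 228188_at was the 1 probe set of the 5 that passed with the block.

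**Figure D2:**
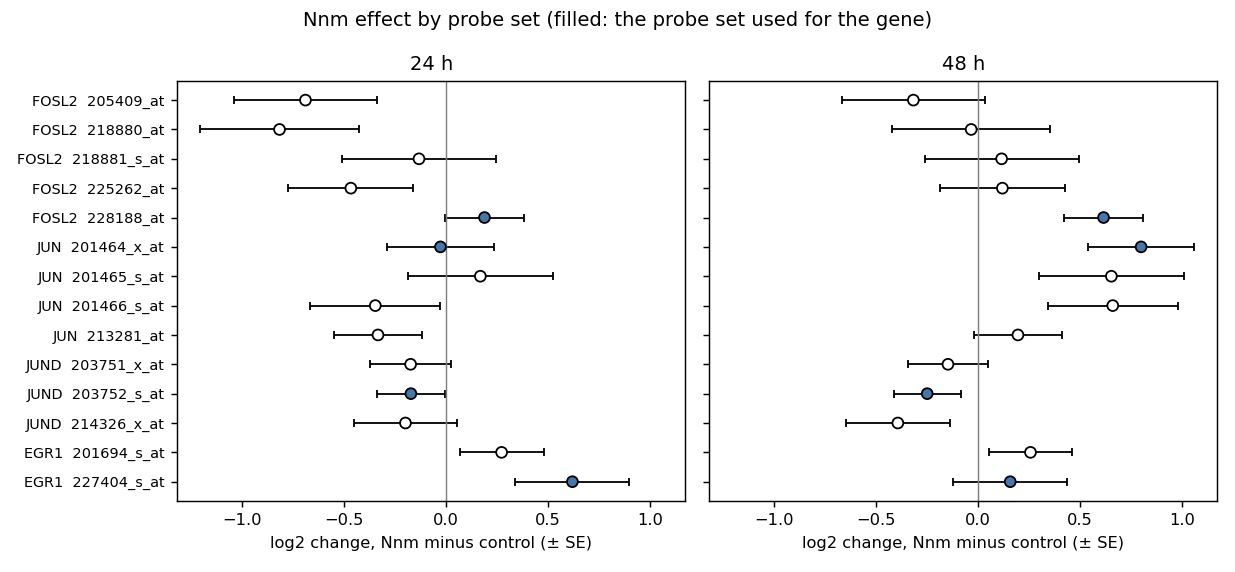
Log2 change with Nnm (x axis, mean Nnm minus mean control, bars ± limma's SE, n = 3 a group) for each kept probe set of FOSL2, JUN, JUND and EGR1 (y axis), at 24 h and 48 h. Filled points are the probe sets that stand for the gene. The 5 FOSL2 probe sets ran from -0.82 to 0.19 at 24 h, while the 4 JUN probe sets were all above 0 at 48 h.

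JUN, the main partner of Fos proteins, did not pass at 24 h. It read 8.89, 8.97 and 9.43 in control 24 h and 8.97, 8.93 and 9.31 in Nnm 24 h, a change of -0.03 with a 95% interval of -0.60 to 0.54. At 48 h it read 8.47, 8.47 and 8.83 in the controls and 9.02, 9.10 and 10.04 with Nnm. The groups did not overlap at 48 h, and the Nnm array of replicate 3 was the highest of all 12. The difference of 0.80 (SE 0.26) had an adjusted p of 0.0636 (limma), and JUN rose with the replicate block (adjusted p = 0.00475). Without Nnm 48 h replicate 3 the 48 h difference was 0.47 (adjusted p = 0.17). All 4 JUN probe sets were higher with Nnm at 48 h, by 0.19 to 0.80, and 3 of them passed with the block. The control level of JUN was lower at 48 h than at 24 h by 0.51 (SE 0.26, adjusted p = 0.378, limma), and the Nnm level was higher by 0.32 (adjusted p = 0.705). The Nnm effect at 48 h minus that at 24 h was 0.83 (SE 0.37, adjusted p = 0.778, limma, or 0.181 with the block), and did not pass.

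JUNB, a Jun protein that often restrains JUN, gave much the same values at both times. Control 24 h read 7.21, 7.11 and 7.38 and Nnm 24 h 8.39, 7.17 and 8.14. Control 48 h read 7.36, 6.97 and 7.39 and Nnm 48 h 8.38, 7.08 and 8.27. Nnm replicates 1 and 3 lay above all 6 controls and Nnm replicate 2 among them, although it exceeded its own control by 0.06 at 24 h and 0.11 at 48 h. The change was 0.67 at each time (SE 0.36), with adjusted p of 0.205 at 24 h and 0.229 at 48 h (limma). With the replicate block JUNB rose at both times (adjusted p = 0.0387 and 0.0443). Without both Nnm replicate 2 arrays the changes were 1.03 (adjusted p = 0.00145) and 1.08 (adjusted p = 0.00154), and without Nnm replicate 1 of the same time they were 0.42 (adjusted p = 0.51) and 0.43 (adjusted p = 0.548). Leaving out both Nnm replicate 2 arrays also raised the count of all genes called, from 2116 to 3703 at 24 h and from 1504 to 3156 at 48 h.

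JUND, the Jun protein present in resting cells, read 12.15, 11.82 and 11.92 in control 24 h, 12.02, 11.76 and 11.59 in Nnm 24 h, 12.21, 12.02 and 11.95 in control 48 h and 12.01, 11.90 and 11.51 in Nnm 48 h. Each Nnm array was under the control of its number, by 0.06 to 0.44, and the groups overlapped at both times. The changes of -0.17 and -0.25 (SE 0.16) did not pass (adjusted p = 0.472 and 0.318, limma), with 95% intervals of -0.53 to 0.19 and -0.61 to 0.11. All 3 kept probe sets were lower at both times, and 1 of them, 214326_x_at, passed at 48 h with the block (-0.39, adjusted p = 0.0499).

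ATF3, a stress-induced AP-1 partner that usually represses, had the largest SE of the 9 genes. It read 4.89, 3.61 and 5.44 in control 24 h and 6.83, 3.66 and 6.72 in Nnm 24 h, so replicates 1 and 3 were higher with Nnm by 1.94 and 1.28 and replicate 2 by 0.05. The mean change of 1.09 had an SE of 0.90 and did not pass (adjusted p = 0.405, limma, or 0.11 with the block). It was 2.13 without both Nnm replicate 2 arrays (limma adjusted p = 0.0166), 0.54 without Nnm 24 h replicate 1 (adjusted p = 0.756), 0.60 without Nnm 24 h replicate 3 (0.726) and 0.57 without control 24 h replicate 2 (0.718). The first of these fits drops the Nnm arrays nearest to the controls on the leading principal component and keeps their controls. In it 3703 of all genes passed at 24 h, against 2116 in the main fit, so it is not read as a rise of ATF3. At 48 h the controls read 6.91, 5.53 and 5.55 and the Nnm arrays 6.50, 4.57 and 7.03. Replicates 1 and 2 were then lower with Nnm and replicate 3 was higher, and the change was 0.04 (SE 0.90, adjusted p = 0.983, limma). That value turned to -0.01 after another quantile normalisation and to -0.0047 with arrays centred on their medians. The other ATF3 probe sets, 1554420_at and 1554980_a_at, read 2.07 to 3.74 and were not tested.

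**Figure D3:**
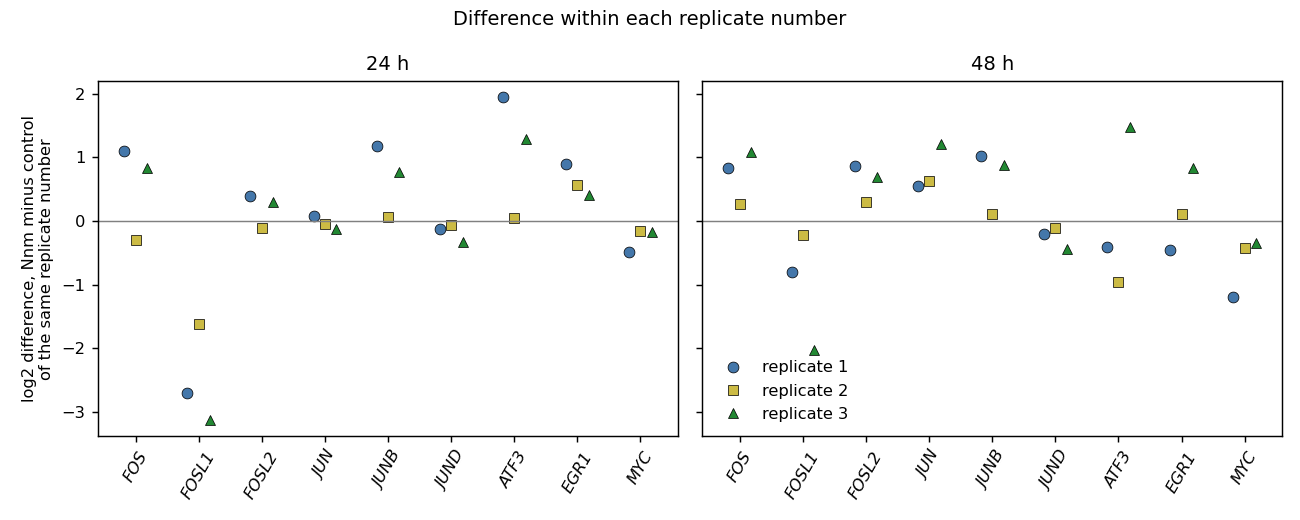
Log2 difference between the Nnm and the control array of the same replicate number (y axis) for the 9 tested genes (x axis) at 24 h and 48 h. Points are replicate numbers. Replicate 2 had the smallest difference in 8 of the 9 genes at 24 h and in 6 at 48 h, and FOSL1 was under 0 in all 6 pairs. The share of all genes with the smallest difference in replicate 2 was not computed. Both Nnm replicate 2 arrays also lay nearest to the controls on the leading principal component of all tested genes, so the count is not read as particular to these genes.

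EGR1 read 11.09, 11.47 and 11.18 in control 24 h and 11.98, 12.02 and 11.59 in Nnm 24 h. The 3 Nnm values were above the 3 control values. The difference of 0.62 (SE 0.28) had an unadjusted p of 0.0483 and an adjusted p of 0.134 (limma), or 0.118 with the block, and so did not pass. It did pass without Nnm 48 h replicate 3 (adjusted p = 0.0373), an array outside this comparison that enters the pooled spread. At 48 h the controls read 11.16, 10.66 and 11.01 and the Nnm arrays 10.70, 10.77 and 11.84, which overlapped, with a change of 0.16 (SE 0.28, adjusted p = 0.739, limma) that was -0.21 without Nnm 48 h replicate 3. Within the Nnm cultures EGR1 was lower at 48 h than at 24 h by 0.76 (SE 0.28, adjusted p = 0.379, limma). A second probe set, 201694_s_at, was higher with Nnm by 0.27 and 0.26 and passed at neither time. The EGR1 partners NAB1 and NAB2 and the relatives EGR2, EGR3 and EGR4 gave 2 tested genes, NAB1 and NAB2, of which 0 passed at either time (limma). With the block NAB2 alone rose at 24 h (adjusted p = 0.0274) and NAB1 alone at 48 h (0.0399). Over all genes 20% and 18.5% rose with the block at those times.

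The second comparison asks which of the genes differed after 48 h. MYC fell, and it was the 1 gene of the 9 that passed (limma), where 13.8% of all genes did (8.45% rose and 5.34% fell). With the replicate block 5 of the 9 passed at 48 h (FOSL1 and MYC lower, FOSL2, JUN and JUNB higher), beside 32.2% of all genes, and 2 of the 9 passed at 24 h (FOSL1 lower and JUNB higher), beside 38.8%. These are 55.6% and 22.2% of the 9. The 48 h count holds FOSL2, which rests on 1 of 5 probe sets, and FOSL1, with 5 of 6 arrays under 4.

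MYC read 12.45, 12.05 and 12.07 in control 24 h and 11.95, 11.89 and 11.89 in Nnm 24 h. The groups did not overlap, but the change was small, at -0.28 (SE 0.16, adjusted p = 0.238, limma). At 48 h it read 12.88, 12.53 and 12.44 in the controls and 11.68, 12.10 and 12.10 with Nnm, again without overlap. The means went from 12.62 ± 0.23 to 11.96 ± 0.24 (SD, n = 3), a fall of 0.66 (SE 0.16, adjusted p = 0.0268, limma) or 1.58-fold. The 95% interval ran from -1.01 to -0.30. The control level was higher at 48 h than at 24 h by 0.43 (SE 0.16, adjusted p = 0.251, limma), while the Nnm groups differed by 0.05. The difference between the effects at both times was -0.38 (SE 0.23, adjusted p = 0.828, limma). The fall at 48 h was no longer called without control 48 h replicate 1 (adjusted p = 0.0914), 2 (0.0511) or 3 (0.0522) or without Nnm 48 h replicate 1 (0.103) or 3 (0.0587), nor when the 48 h arrays were fitted alone (0.0743) or no filter was set (0.0528). Of the 9 genes, 3 had groups without overlap at 24 h (FOSL1, EGR1 and MYC) and 3 at 48 h (FOSL2, JUN and MYC), or 33.3% at each time, where 39.8% and 36.1% of all genes did.

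**Figure D4:**
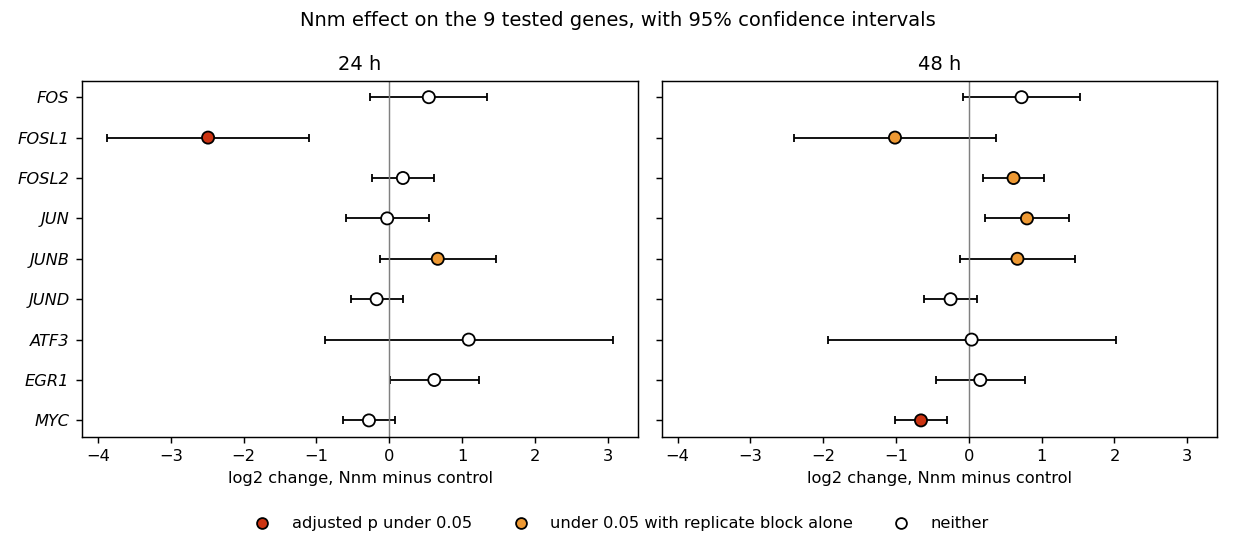
Log2 change with Nnm (x axis, mean Nnm minus mean control) for the 9 tested genes (y axis) at 24 h and 48 h, with 95% confidence intervals from the fit without a block, n = 3 a group. Red points passed an adjusted p of 0.05, orange points passed with the replicate block alone and white points in neither fit. FOSL1 at 24 h (-2.49) and MYC at 48 h (-0.66) are red.

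No member passed in the remaining comparisons without the block. For the Nnm effect at 48 h minus that at 24 h, 0 of the 9 genes passed (limma), with an adjusted p of 0.778 or more, 0.181 or more with the block, and 1 gene (JUN) at an unadjusted p under 0.05. Over all genes 0% passed there, and 0.0183% with the block. Between Nnm 48 h and Nnm 24 h, 0 of 9 passed (adjusted p of 0.379 or more, limma), with 1 (EGR1) at an unadjusted p under 0.05, where 0.119% of all genes passed, and 2.29% with the block. Between the control groups 0 of 9 passed without the block, and 3 (FOSL1, FOSL2 and MYC) had an unadjusted p under 0.05. These comparisons share arrays with one another and with those of Nnm against control.

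The genes whose values over the 12 arrays lay closest to those of FOSL1 and MYC were found by the root-mean-square difference, after each gene had its control 24 h mean subtracted. Nearest to FOSL1 was the non-coding RNA LINC00973, with a difference of 0.57 log2 units and changes of -1.95 at 24 h and -1.16 at 48 h. C1orf116 (0.81) and the myosin light chain MYL9 (0.84) came next. MYL9 fell by 1.46 at 24 h and 1.78 at 48 h. Nearest to MYC were the Rab protein RAB40B (0.16), the pseudogene NSUN5P1 (0.17) and the phosphatase DUSP3 (0.17), with changes at 48 h of -0.59, -0.42 and -0.67.

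The partners and regulators of AP-1 were taken from lists chosen with earlier results of these data known. Their counts stand beside 10.6% of all genes that rose and 8.85% that fell at 24 h, and 8.45% and 5.34% at 48 h. With the replicate block 20% rose and 18.8% fell at 24 h, and 18.5% and 13.7% at 48 h. Among 11 tested bZIP relatives 1 rose and 1 fell at 24 h and 1 fell at 48 h, with medians of 0.14 and 0.00, counts near those shares. BATF3, a small bZIP protein that pairs with Jun, fell by 1.74 (SE 0.34, adjusted p = 0.0106, limma) at 24 h and by 1.19 (SE 0.34, adjusted p = 0.0431) at 48 h. ATF2, a partner of JUN and a target of JNK and p38, rose by 0.66 at 24 h. With the block 3 rose and 2 fell at 24 h and 1 rose and 1 fell at 48 h.

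Of 7 tested genes of SRF and the factors that bind with it, 1 rose at 24 h, and 1 rose and 1 fell at 48 h (medians 0.17 and 0.15). With the block 3 rose and 1 fell at 24 h and 2 rose and 1 fell at 48 h. The SRF coactivator MRTFB rose by 0.47 at 24 h. The ternary complex factor ELK3 rose by 0.91 and SRF itself fell by 0.55 at 48 h (SE 0.13, adjusted p = 0.0215, limma). Among 13 tested genes of the ERK, JNK and p38 kinase pathways, HRAS included, 2 rose at 24 h and 1 at 48 h (medians -0.02 and 0.25). These counts are near the shares of all genes that rose. MAP3K1, which acts upstream of JNK, rose by 0.67 and 0.87 (SE 0.14 at each time, adjusted p = 0.0122 and 0.00659), and the p38 kinase activator MAP2K6 rose by 0.65 at 24 h. The block gave 4 rises and 2 falls at 24 h and 4 rises and 3 falls at 48 h in that list.

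Of 17 other immediate early genes tested, 4 rose and 2 fell at 24 h and 3 rose at 48 h (medians 0.12 and 0.25), while with the block 4 rose and 2 fell at 24 h and 8 rose at 48 h, where 18.5% of all genes rose. ID3 and ID1, HLH proteins that respond to BMP signals, rose by 1.66 and 0.99 at 24 h and by 1.40 and 1.13 at 48 h. The MAP kinase phosphatase DUSP1, a glucocorticoid target too, rose by 1.05 and 0.89, and the RNA-binding protein ZFP36L2 rose by 1.16 at 24 h. The falls were the matrix protein CCN1, at -1.34 (SE 0.41, adjusted p = 0.0433, limma), and the TGF-beta inducible factor KLF10, at -0.53 (adjusted p = 0.0443), both named after their values were seen.

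Of 22 tested AP-1 targets, 0 rose and 1 fell at 24 h (limma) and 1 rose and 0 fell at 48 h, shares under those of all genes. The chemokine CXCL8 fell by 0.91 at 24 h (SE 0.26, adjusted p = 0.0336) and the protease inhibitor TIMP1 rose by 0.45 at 48 h (SE 0.11, adjusted p = 0.0267). The medians were -0.10 and 0.03. With the replicate block 2 rose and 6 fell at 24 h, where 20% of all genes rose and 18.8% fell. At 48 h 3 rose and 2 fell with the block, where 18.5% of all genes rose and 13.7% fell. The share of falls at 24 h was above that of all genes, and the other shares were under theirs. Without both Nnm replicate 2 arrays 3 rose and 1 fell at 24 h, in a fit where 3703 of all genes passed, against 2116 in the main fit.

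MYC targets made up the list with the largest share of falls. This list too was chosen with earlier results of these data known, so its share is a description and no test. Of 25 tested, 11 fell and 0 rose at 24 h, and 6 fell and 0 rose at 48 h, where 8.85% and 5.34% of all genes fell. The medians were -0.42 and -0.34, against 0.01 and 0.02 over all genes. The cyclin CCND2 fell by 1.88 and 2.10 (SE 0.42), the spermidine synthase SRM by 1.07 and 0.83 (SE 0.20, adjusted p = 0.00947 and 0.0255, limma), and the ribosome assembly factor MRTO4 by 0.99 and 0.67. CDK4, the G1 kinase, fell by 0.75 at 24 h (SE 0.13, adjusted p = 0.00752) and by 0.52 at 48 h. The nucleolar proteins NOP16, at -0.99 at 24 h, and WDR12, at -0.55 and -0.65, fell as well. With the mean of their probe sets WDR12 (adjusted p = 0.122) and, in the immediate early list, ZFP36L2 (0.115) did not pass at 24 h. The block gave 15 falls and 1 rise at 24 h and 10 falls and 2 rises at 48 h. Without both Nnm replicate 2 arrays 13 fell and 1 rose at 24 h, and 12 fell and 2 rose at 48 h. In that setting 3703 and 3156 of all genes passed, against 2116 and 1504 in the main fit. The main shares of all genes therefore do not serve for these counts. At 24 h, where the targets fell most often, MYC itself had a change of -0.28 that did not pass.

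In the MYC network, 2 of 14 tested genes rose at each time and 0 fell (medians 0.18 and 0.18). With the block 5 rose and 1 fell at 24 h and 4 rose and 1 fell at 48 h, and the fall at each time was the deubiquitinase USP36 (-0.45 and -0.47, adjusted p = 0.0341 and 0.0327), named after its values were seen. MXI1, which competes with MYC for MAX, rose by 0.77 (SE 0.19, adjusted p = 0.0232, limma) at 24 h, and MYCBP2, a ubiquitin ligase that binds MYC, by 0.69 (SE 0.16). MLXIP, the partner of MLX in glucose sensing, rose by 1.04 at 48 h (SE 0.26, adjusted p = 0.0273), and CIP2A, which protects MYC from dephosphorylation, by 0.57 (SE 0.15). With the mean of their probe sets MLXIP (adjusted p = 0.0518) and CIP2A (0.0611) did not pass at 48 h, nor did DUSP1 (0.0564) and WDR12 (0.0518). Of the 33 results of the 23 list genes named by rule, 9 stayed past the threshold without each array in turn. These were BATF3, CDK4, MRTO4 and SRM at 24 h, ID1 at 48 h, and ID3 and MAP3K1 at both times. Each of the others was lost without at least 1 array.

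**Figure D5:**
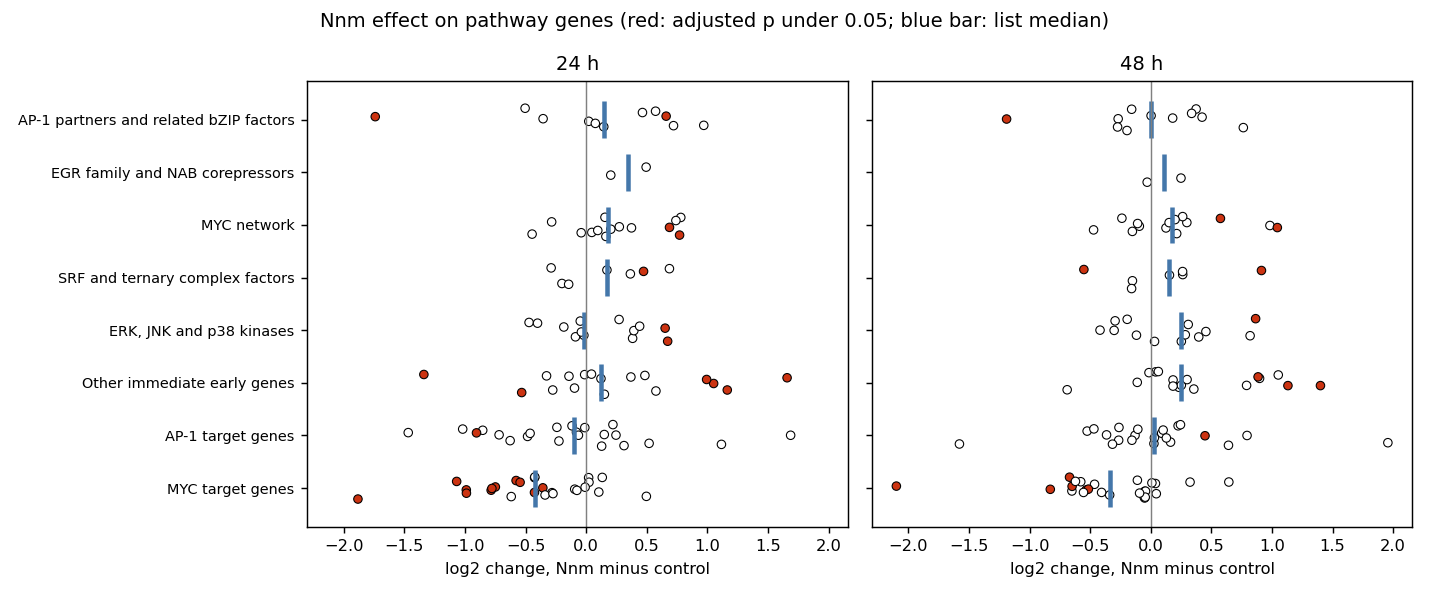
Log2 change with Nnm (x axis, mean Nnm minus mean control) of each tested gene of the 8 pathway lists (y axis), at 24 h and 48 h. Each point is a gene, red where the adjusted p was under 0.05, and blue bars are list medians. The MYC targets hold 11 red points at 24 h and 6 at 48 h, all under 0.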

How the data were processed

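Gene expression was measured on 12 Affymetrix arrays of biotinylated cRNA from HK-2 total RNA. The authors deposited 1 value for each probe set and array, taken as log2 from their range; the submitters' processing notes name GCRMA as the tool. Its version and the set of arrays normalised together are not given in the sources used here. GCRMA as a method corrects background by probe sequence and compresses dim probe sets, which can understate differences at low values. Of 54675 probe sets, 41091 had 1 symbol, 1801 several and 11721 none, and 62 were controls. IDs of 41043 were found in RefSeq (GRCh38.p14), with 0 symbols changed. A probe set was kept if 3 or more arrays exceeded a log2 of 4, and the brightest kept one stood for its gene.

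The tests used limma 3.58.1 (lmFit and eBayes, R 4.3.3) on the 12 arrays jointly, with Benjamini-Hochberg adjustment over the 10907 genes and a threshold of 0.05. Named were all 10 genes and the 3 genes closest to each called member. From each pathway list, up to 4 genes at 24 h and up to 4 at 48 h were named, those with the smallest p past the threshold. Members and lists were chosen with earlier results of these data known. The script was tested on simulated data. Alternatives are in the closing section.

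Deviations from the group means correlated at 0.318 to 0.696 between arrays that share a replicate number and at -0.587 to 0.119 between those that do not, so the numbers, which come from the labels, were taken as pairs. The main test was run without the replicate block, and the blocked value stands beside a result where it changes the call. Plots used Python 3.11.15 and matplotlib 3.10.9.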

Additional observations from a re-analysis of the deposited data

Results flagged for a closer look

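Probe sets under the filter value of 4 on every array were not tested, and 4 of the 5 had an Nnm array above the highest control. The share of all untested probe sets with such an array was not computed, so this count is not read as a result about these genes. The EGR1 probe set 201693_s_at read 3.07 on Nnm 24 h replicate 1, against a highest control of 2.38. The FOSB probe set 202768_at read 2.43 on Nnm 24 h replicate 2, against 2.26. The ATF3 probe set 1554980_a_at read 3.74 on Nnm 48 h replicate 3, against 3.65, and the JUND probe set 229117_s_at read 2.0223 on Nnm 24 h replicate 3, against 2.0217. Each is 1 array of a group of 3, too few for a test of single outlying arrays, and the cause was not tested.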

How the results depend on the processing

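Only results of the 9 tested genes, their named pathway genes and the counts of genes past the threshold were recomputed. With no filter on low values 0 of the 9 genes passed at 24 h and 0 at 48 h, and over all genes 1272 and 879 passed, 1 for the difference between the times, 6 between the control groups and 3 between the Nnm groups. With the filter at a log2 of 6, where FOSL1 is not tested, 0 passed at 24 h, and 6 of all genes between the Nnm groups. With the mean of the kept probe sets 1, 8 and 4 of all genes passed for the difference, the control groups and the Nnm groups, and FOSL2 stood at -0.38 at 24 h. A trended, robust fit gave 7 between the Nnm groups. Array weights gave 4 and 5 of the 9 genes and 4864, 3468, 37, 92 and 995 of all genes (24 h, 48 h, difference, control groups, Nnm groups). Both member counts hold FOS, and the 24 h count holds FOSL1. FOS met the filter through Nnm arrays alone and FOSL1 mainly through control 24 h, so these counts are no added support. The replicate block gave 2 and 5 of the 9, 1 between the control groups, and 4237, 3515, 2, 924 and 250 of all genes. FOSL1 is in each of these member counts. The groups compared alone gave 0 of the 9 at 48 h and 837, 514, 4 and 0 of all genes, with no value for the difference, which needs all groups. Without both Nnm replicate 2 arrays 4 and 5 of the 9 passed, FOS among them, which met the filter through the Nnm arrays that stay, and 3703, 3156, 36, 63 and 246 of all genes.

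Directions turned in a few cases, and the cause was not tested. ATF3 at 48 h was -0.0101 after quantile normalisation and -0.0047 with arrays centred on their medians. JUN at 24 h was 0.18 with array weights, 0.0433 without both Nnm replicate 2 arrays and 0.17 by probe set 201465_s_at, with or without the replicate block. The single FOSL2 probe sets, a setting chosen after seeing the data, gave -0.69, -0.82, -0.13 and -0.47 at 24 h and -0.32 and -0.0347 at 48 h, with or without the block.

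With each array left out in turn, 0 to 2 of the 9 genes passed at 24 h and 0 to 5 at 48 h. Over all genes 404 (without control 24 h replicate 3) to 3248 (without Nnm 24 h replicate 2) passed at 24 h, 267 (without Nnm 48 h replicate 1) to 2403 (without Nnm 48 h replicate 2) at 48 h, 0 to 17 for the difference between the times, 3 to 27 between the control groups and 0 to 388 between the Nnm groups. JUN ran from -0.15 to 0.14 at 24 h and from -0.0082 to 0.50 between the Nnm groups, ATF3 from -0.46 to 0.77 at 48 h and EGR1 from -0.21 to 0.36 at 48 h. Probe sets near background limit FOS and FOSL1, and FOSB could not be measured.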
